A study of Mus musculus with 14 samples.

Results

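Gas6, the growth arrest-specific gene whose secreted product activates the TAM receptor kinases, was represented by 1 of the 7680 probes of a two-colour spotted array and is 1 of the 6542 genes named on it. The probe was found by its symbol in the platform's probe annotation. It was picked with its wide spread between cell lines already known, so its values are given as a description and carry no test. The study asked which genes single lines add to a mouse reference RNA, and hybridised total RNA of 11 mouse cell lines on 14 arrays. Each array carried 1 line in Cy5 against the Stratagene mouse reference in Cy3, which is a commercial RNA pool made from mouse cell lines. The myeloma, mammary tumor and fibroblast lines had 2 arrays each. The macrophage, testis, liver, embryo fibroblast, myoblast, skin, T-cell lymphoma and kidney lines had 1 array each. The labels state no strain, clone name, genotype, age or treatment for the lines, and do not say whether paired arrays came from separate cultures. The p-values of single lines below therefore reflect differences between arrays, and these may be technical. Those of the blood-cell comparison reflect the spread between line means. The labels' short annotation speaks of primary tissue where the titles speak of cell lines, and the titles were followed.

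Each value is a log2 ratio of line over pool, so 0 marks a line with as much signal as the pool. Base and direction are not stated with the values and were taken from their distribution, and every fold rests on base 2. Spot intensities were not used here, so how far a strongly negative ratio lies above background is unknown. Likewise it is unknown whether a probe near 0 in every line had signal above background. A ratio to the pool ranks lines for 1 probe and cannot rank the amounts of different transcripts. Array medians lay between -0.51 and 0.13, and the lowest value on an array lay between -8.81 and -4.96. All 14 arrays had the same dye orientation, so a dye effect of the Gas6 probe would enter all its values alike. The reference on the first mammary tumor array had 3 extra letters in its label.

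Gas6 is a secreted vitamin K-dependent protein. Its amino-terminal Gla domain is carboxylated by the enzyme Ggcx and then binds calcium and the phosphatidylserine exposed on dying cells. Its laminin G domains bind the receptor tyrosine kinases Tyro3, Axl and Mertk, whose initials give the TAM family its name. The related protein S, encoded by Pros1, is the other classical ligand and binds Tyro3 and Mertk. In macrophages, Gas6 bridges a phagocyte's TAM receptor to an apoptotic cell, and the receptors also restrain inflammatory signalling. The gene was first isolated from serum-starved mouse fibroblasts, in which its transcript accumulates as the cells stop dividing.

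Because the ratio of this gene differed so widely between lines, the sequence just upstream of it is shown. RefSeq places the 250 bases before the annotated Gas6 start at chr8:13494536-13494785 in GRCm38.p6, on the minus strand. Capitals mark the GC box letters CCGCCC.
Gas6: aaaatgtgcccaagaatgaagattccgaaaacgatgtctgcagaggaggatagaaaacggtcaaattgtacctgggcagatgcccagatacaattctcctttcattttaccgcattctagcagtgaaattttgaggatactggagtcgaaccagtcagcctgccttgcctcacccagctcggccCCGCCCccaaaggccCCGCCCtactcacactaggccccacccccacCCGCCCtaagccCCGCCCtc
The window was 54.8% G or C, against a median of 52.4% over 32851 RefSeq windows of the same length, which places it at the 59.0th percentile. Both strands were searched. CCGCCC occurred 4 times on the printed strand, each time on the side of the window nearer the start. At least 1 such match was found in 32.7% of all windows and at least 4 in 4.09%. The windows with the octamer ATGCAAAT, known from B-cell promoters, made up 1.60% of the total, and the Gas6 window had no match. It also had no match to TATAAA, present in 12.4% of windows, to CCAAT, present in 33.8%, or to TGACGTGG, a core of the unfolded protein response element, present in 0.563%. These are letter matches only.

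Gas6 was above the pool in 1 of the 11 lines. The myeloma arrays read 2.11 and 3.09, a mean of 2.60 ± 0.70 (SD, n = 2). The macrophage line read -2.60 and the testis line -3.44. In these 3 lines the arrays did not overlap with those of any other line. The other 8 lines formed a low band, with line means between -6.96 and -5.48. Within that band the liver line read -5.48, and the mammary tumor arrays -4.90 and -6.22, a mean of -5.56 ± 0.93 (SD, n = 2). The embryo fibroblast line read -5.72 and the myoblast line -5.82. The fibroblast arrays read -6.32 and -6.17, a mean of -6.25 ± 0.11 (SD, n = 2). The skin line read -6.67, the T-cell lymphoma line -6.95 and the kidney line -6.96.

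**Figure D1:**
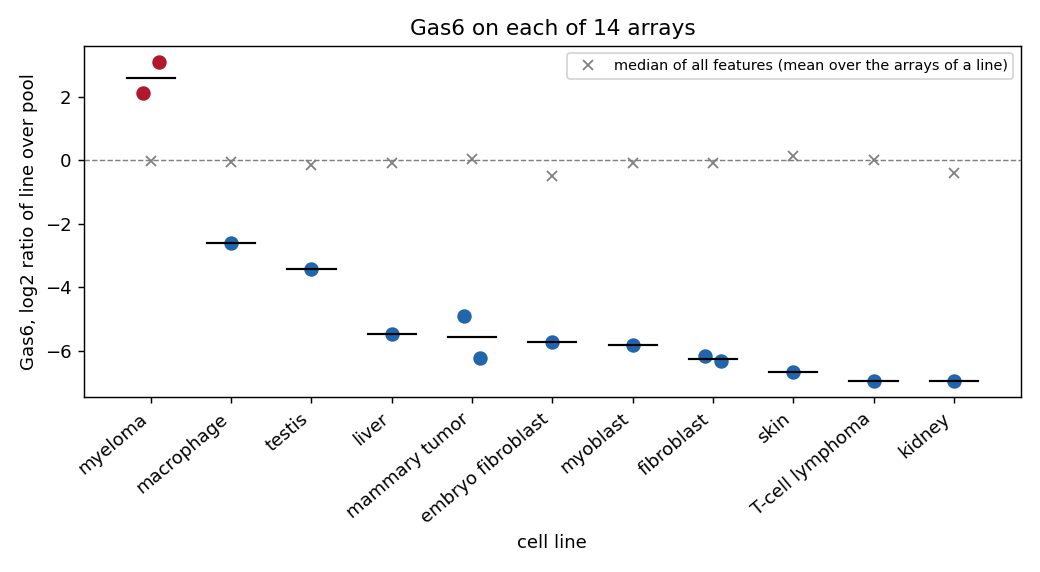
Gas6 log2 ratio of line over pool (vertical axis) on each of the 14 arrays, with lines in order of their mean; points are arrays, bars the mean of a line's arrays, and crosses the median of all features. The myeloma arrays at 2.11 and 3.09 are the 2 values above the pool, macrophage and testis follow at -2.60 and -3.44, and the other 8 lines lie between -6.96 and -5.48 by their means.

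The myeloma mean stood 8.14 above the equally weighted mean of the other 10 lines, which was -5.54 (median -5.77). The step between the myeloma and macrophage lines was 5.20, or 36.7-fold, against a pooled SD of 0.67 for the 3 pairs of arrays. The step between testis and liver was 2.04, also wider than that SD, but each of these lines had 1 array. Mammary tumor array 1, at -4.90, was nearer to the testis line than the liver line was. The macrophage line was 0.84 above the testis line, little more than 1 pair SD. Inside the low band no line was further than 0.43 from its neighbour, so the order there is not resolved: the 2 mammary tumor arrays alone differed by 1.31.

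Read as unlogged ratios, 94.4% of the summed Gas6 signal of the 11 lines came from the myeloma line, 2.43% from the macrophage line, 1.36% from the testis line and 1.79% from the other 8 lines together. A transcript made by 1 line alone would read 3.46, the log2 of 11, in that line if the pool held the 11 lines in equal parts. Myeloma array 2 was 0.37 below that value and array 1 was 1.35 below it. With equal parts, the mean unlogged ratio over the lines would be 1. For Gas6 it was 0.618, against a median of 1.01 over the 7423 features measured in every line (quartiles 0.875 and 1.17), a position at the 1.89th percentile.

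Few probes on the array spread as widely. The line means of Gas6 spanned 9.56, the third-widest span of the 7423 features, whose median span was 2.04. Gas6 ranked 60th from the top of 7558 features on myeloma array 1 and 7th of 7473 on array 2. On 9 of the 12 arrays of other lines it was among the 3 lowest features, and on the T-cell lymphoma array it was the lowest. The exceptions were embryo fibroblast, where it was 9th from the bottom, testis, where it was 22nd, and macrophage, where it was 275th. Of 132 table cells below -5, 9 belonged to Gas6. By the difference between the myeloma mean and the mean of the other lines, Gas6 came second, after a probe with no gene name in the annotation (9.10). Irf4, a transcription factor of plasma cells, followed at 5.67, then Cntn3 at 5.34 and Blnk, a B-cell adaptor, at 5.31. These positions describe the measure by which the gene had been noticed and support nothing further.

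**Figure D2:**
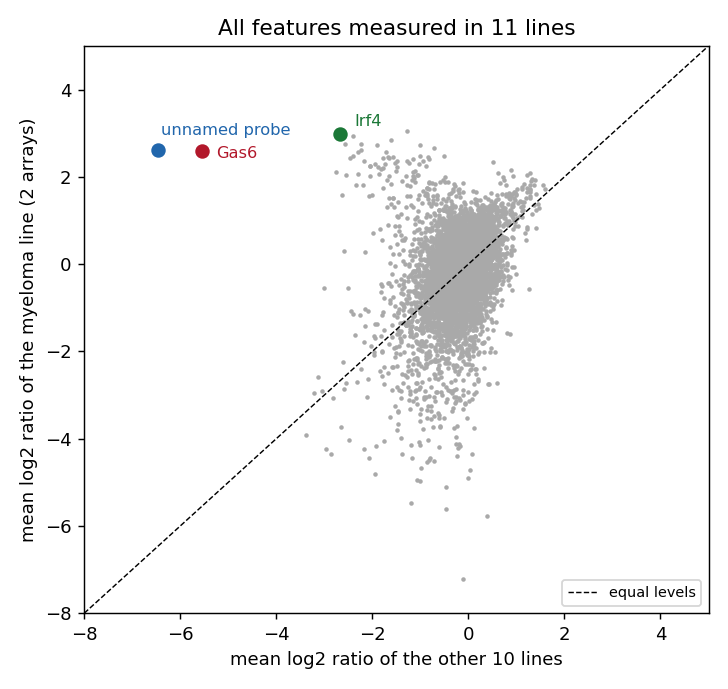
Myeloma mean log2 ratio (vertical axis) against the mean log2 ratio of the other 10 lines (horizontal axis) for 7423 features, 1 point each, with Irf4 marked and a dashed line where both are equal. Gas6 at 2.60 and -5.54 and 1 probe without a gene name at 2.62 and -6.47 lie apart at the left, beyond Gpnmb, whose mean in the other lines was -3.38.

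Image numbers in the labels fell into runs, and both myeloma arrays came from the same run as the liver, macrophage and testis arrays and fibroblast array 2. In that run the 4 other arrays read -6.17 to -2.60 with a mean of -4.42, and the myeloma mean was 7.02 above it. The 8 arrays outside the run read -6.96 to -4.90 with a mean of -6.20, and the myeloma mean was 8.79 above that. The macrophage and testis arrays, with the highest Gas6 ratios after myeloma, were both within the run. The labels do not say what such a run stands for.

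The next probes by number were also higher in the myeloma line. Probe number +1 after Gas6, for Lactb, a mitochondrial protease-like protein, read 0.68 and 2.51 on the myeloma arrays, 0.65 in macrophages and a median of -2.05 over the 10 other lines. Probe +2, for Vpreb3, a protein of B-cell precursors, averaged 1.14 in the myeloma line, against a median of -0.90 in the others. Over the 11 lines their correlation with Gas6 was 0.770 and 0.908, and that of the unnamed probe +3 was 0.662. Pros1, at +4, gave -0.18, and the probe just before Gas6 gave 0.17. Over all features the median correlation was 0.385 for adjacent numbers, 0.301 at 2 apart, 0.263 at 3 apart and 0.10 at 400 apart. For the 100 widest features it was 0.490 with the following probe and 0.277 with the preceding one. These correlations are descriptions over 11 lines that share 1 pool and the array's print layout, and the part of the layout in the Gas6 values was not tested.

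**Figure D3:**
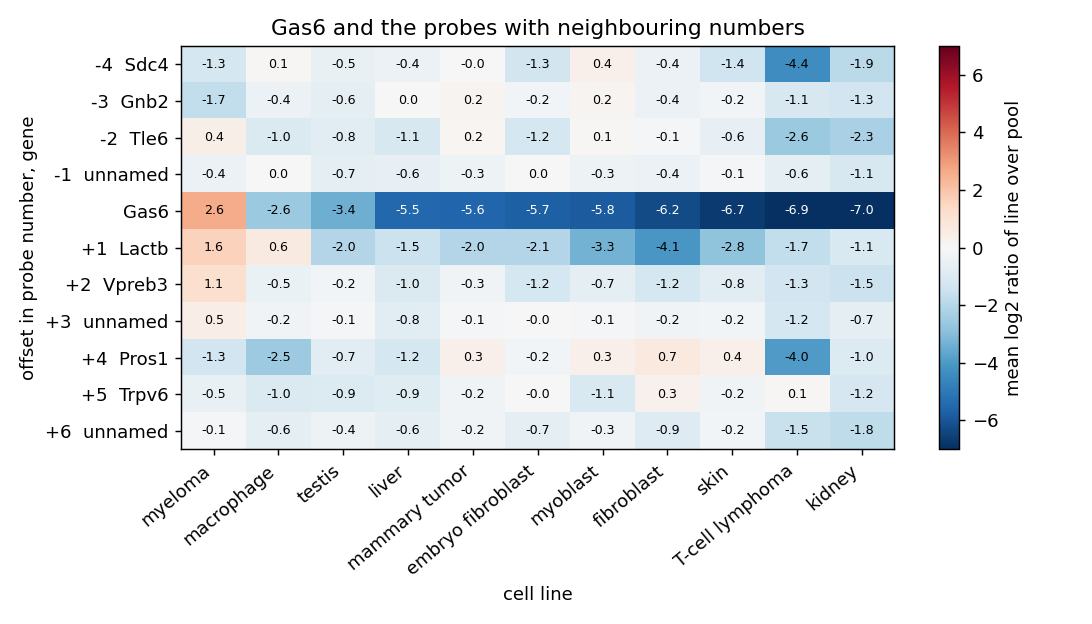
Log2 ratio of line over pool (colour) for the probes numbered just before and after Gas6 (rows) in the 11 lines (columns, in the order of Gas6). Lactb and Vpreb3, the rows after Gas6, average 1.60 and 1.14 in the myeloma line, against medians of -2.05 and -0.90 in the other lines, while Pros1 shows no such pattern.

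The ratios of the TAM receptors did not share the Gas6 pattern. Without spot intensities, receptor ratios near 0 do not show that the receptors were expressed. Each line was compared with the mean of the other 10 with limma, and a probe was called at an adjusted p under 0.05 over all 7423 features. A line with 1 array has no spread of its own, so its SE and p rest on the 3 pairs of arrays of other lines. In the myeloma line 6.70% of features were called, 3.29% higher and 3.41% lower, and over the 11 line comparisons together 1.89% of tests were. The 3 receptors gave 0 calls in 33 tests with limma (4 at an unadjusted p under 0.05, and 0 calls with the replicate number as a block). Tyro3, a receptor best known from the nervous system, read 0.55 and -0.25 in the myeloma line, and the others ranged from -0.74 in embryo fibroblasts to 0.86 in the kidney line. Axl, the receptor with the highest affinity for Gas6, read -0.29 and -0.38 in the myeloma line. Its highest values were 1.23 in embryo fibroblasts, 0.94 in the skin line and 0.82 in macrophages, and its lowest was -0.85 in the mammary tumor line. Mertk, the main TAM receptor for uptake of dying cells by macrophages, read -1.11 and -0.75 in the myeloma line and -0.27 in macrophages, within a range of -1.42 in myoblasts to 0.02 in the testis line. The myeloma difference was -0.10 ± 0.30 for Tyro3 (SE, limma adjusted p = 0.876), -0.51 ± 0.33 for Axl (adjusted p = 0.426) and -0.42 ± 0.26 for Mertk (adjusted p = 0.393). By span over the lines Axl lay at the 52.0th percentile of all features, Tyro3 at the 28.8th and Mertk at the 19.8th.

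Pros1, the other ligand, had its lowest line means in lines of blood-cell origin. It read -3.97 in the T-cell lymphoma line, while the other 10 lines averaged -0.52, a difference of -3.44 ± 0.72 (SE, limma adjusted p = 0.0493; 0.0142 with the replicate block). T-cell lymphoma calls made up 4.58% of features, 2.22% higher and 2.36% lower. The call was lost in 6 of 13 alternative settings and rests on 1 array. The macrophage line read -2.55, and the myeloma arrays -2.40 and -0.25, values that differ by more than the myeloma difference of -0.53 ± 0.53 (SE, limma adjusted p = 0.60). The myeloma mean of -1.32 was close to the -1.21 of the liver line. Myeloma array 2 lay above the liver, kidney (-0.96) and testis (-0.75) arrays. The fibroblast arrays read 0.55 and 0.81, the highest mean of any line, where Gas6 was in its low band. Across lines the ligands therefore had different orders: the myeloma line was highest of 11 for Gas6 and below the pool for Pros1.

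**Figure D4:**
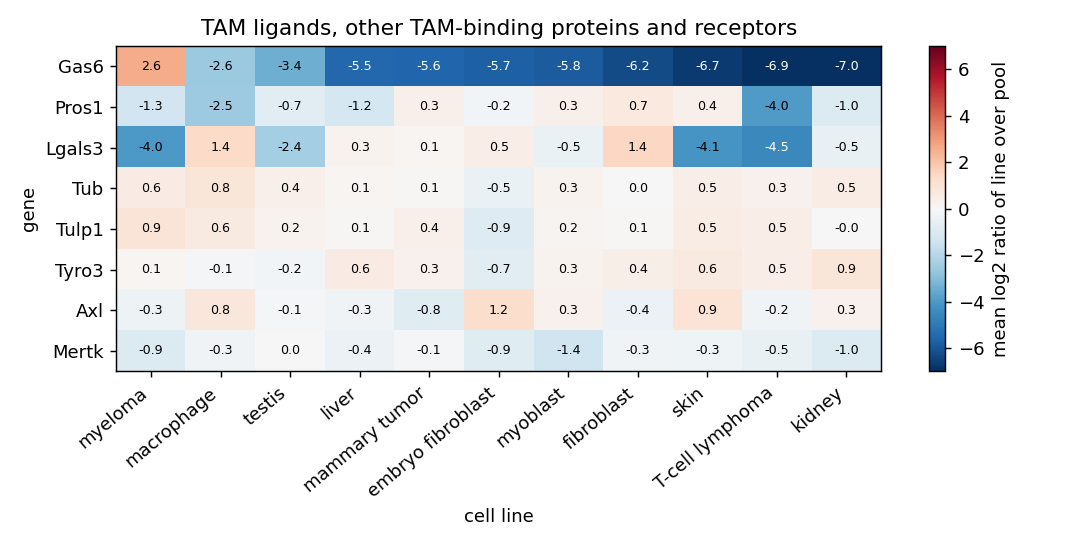
Log2 ratio of line over pool (colour) for Gas6, Pros1, the TAM receptors and other reported TAM-binding proteins (rows) in the 11 lines (columns, in the order of Gas6). Gas6 spans 9.56 and the receptors between 1.43 and 2.08, and Pros1 is lowest in the T-cell lymphoma line at -3.97.

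Among other proteins reported to bind TAM receptors, Lgals3 (galectin-3, a secreted lectin) fell in the myeloma line and rose in the macrophage and fibroblast lines. The myeloma arrays read -3.89 and -4.16, a difference of -3.18 ± 0.32 (SE, limma adjusted p = 0.00346), lost without myeloma array 2 (adjusted p = 0.0703). The T-cell lymphoma and macrophage lines had 1 array each, so their tests take the spread of the paired lines. The T-cell lymphoma line read -4.51, with a difference of -3.72 ± 0.44 (SE, limma adjusted p = 0.0163). The macrophage line read 1.35, a difference of 2.72 ± 0.44 (SE, limma adjusted p = 0.0242), where 1.94% of features were called higher. The fibroblast arrays read 1.44 and 1.43, a difference of 2.82 ± 0.32 (SE, limma adjusted p = 0.0204), where 0.835% were called higher. The T-cell lymphoma call was lost under quantile normalization (adjusted p = 0.0681). The macrophage call was lost in 3 of 13 settings, with an adjusted p of 0.112 under quantile normalization and 0.0509 and 0.0531 without myeloma array 1 and array 2. The fibroblast call was lost in 3 as well, with 0.0928 and 0.10 without fibroblast array 1 and array 2 and 0.0515 without myeloma array 2. The skin line read -4.14, a difference of -3.32 that was not called (limma adjusted p = 0.189). Lgals3 was thus far below the pool in the line where Gas6 was highest, and both were far below it in the T-cell lymphoma and skin lines. Tub, tubby, read 0.97 and 0.19 on the myeloma arrays, and Tulp1, its photoreceptor relative, 1.22 and 0.56. The myeloma difference of Tulp1 was 0.73 (limma adjusted p = 0.276). With the replicate block its difference was 1.01, and it was called (limma adjusted p = 0.0378).

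The list for enzymes and substrates of the vitamin K cycle had 20 entries, of which 11 genes were measured, by 12 probes, Pros1 included. The listed genes Vkorc1 and Vkorc1l1 were not among those measured. In the myeloma line 0 of the 12 were called by limma, and 0 had an unadjusted p under 0.05. The largest uncalled difference was -0.84 ± 0.57 (SE, limma adjusted p = 0.438), for 1 of the 2 probes of Nqo1, a quinone reductase. Ggcx, Furin and Calu are described for their roles and were picked after their values were seen. Ggcx, the carboxylase that modifies Gas6, read 0.16 and -0.35 on the myeloma arrays, against -0.85 to 0.29 in the other lines. Furin, a protease that removes propeptides, read -0.82 and 0.00, within the -1.47 to 0.18 of the others. Calu, calumenin, an inhibitor of the carboxylase, read -0.95 and 0.02, within -2.87 to 0.95. The clotting factor F10 had a value on myeloma array 1 alone, 0.39. Proc, the anticoagulant protein C, fell in the embryo fibroblast line, which read -3.18 on its 1 array, while the other lines averaged 0.31. That difference was -3.48 ± 0.57 (SE, limma adjusted p = 0.0382), in a comparison where 1.79% of features were called lower, and it was lost in 6 of 13 settings. Counted with the 3 receptors, these 15 probes gave 2 calls in 165 tests, or 1.21%, below the 1.89% over all features. At an unadjusted p under 0.05 there were 21, against 15.8% of all tests. With the replicate block there were 5 calls, while 6.27% of all tests were called.

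The wider pathway was described with 97 probes in 7 lists that were drawn up by gene function and leave out Gas6. In the myeloma line 14 of the 97 were called by limma, 3 higher and 11 lower, or 14.4% against 6.70% of all features. With the replicate number as a block 29 were called, 10 higher and 19 lower, while 15.4% of all features were. Without myeloma array 2 the count was 2, Anxa1 and Rac1, with 0.555% of all features called, and without array 1 it was 9. Leaving out 1 array makes the fit take the lone array's spread from the other lines.

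Uptake of dying cells, in which Gas6 acts as a bridge, gave 4 of 20 probes lower in the myeloma line and 0 higher. Of all features 3.41% were lower and 3.29% higher. The median difference was -0.44 against 0.11 over all features. With the replicate block 7 were lower and 1 higher, where 15.4% of all features were called in either direction. Anxa1, annexin A1, a phosphatidylserine-binding signal on dying cells, read -3.43 and -5.27 on the myeloma arrays, against -3.99 to 1.65 in the other lines, a difference of -4.42 ± 0.46 (SE, limma adjusted p = 0.00374). Lrp1, an endocytic receptor for apoptotic cells, read -3.66 and -3.78, a difference of -2.99 ± 0.35 (SE, limma adjusted p = 0.00531). Its other lines ranged from -3.88 to 1.31, so the myeloma arrays were not outside them. Thbs1, thrombospondin 1, a bridge between dying cells and integrins, read -4.98 and -3.73, against -6.89 to 2.39, a difference of -2.97 ± 0.40 (SE, limma adjusted p = 0.00811). Rac1, the GTPase that drives engulfment, read -2.87 and -1.73, below the -0.47 to 1.15 of all other lines, a difference of -2.38 ± 0.34 (SE, limma adjusted p = 0.0104). Of these 4, Rac1 alone had both myeloma arrays outside the range of the other lines, but its call was lost without myeloma array 1 (adjusted p = 0.0686). Thbs1 was lost without either myeloma array (0.0628 without array 1 and 0.0508 without array 2), and Lrp1 without array 2 (0.0858). Other members were not called in the myeloma line without the block. Anxa5, annexin A5, which also binds phosphatidylserine, had a difference of -1.51 (limma adjusted p = 0.0644, and 0.0146 with the block). Cd47, the signal that restrains uptake, had a difference of 1.14 (adjusted p = 0.105) and its receptor Sirpa one of -1.16 (adjusted p = 0.404). Cd36, a scavenger receptor, read 0.25 and -2.41, with a difference of 1.36 (limma adjusted p = 0.387). With the block its difference was 2.20, and it was called (limma adjusted p = 0.0078). In the macrophage line, which had 1 array, Cd36 was called higher, with a difference of 6.76.

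The growth-arrest list holds genes that, like Gas6, were named for or are known from arrest of the cell cycle. Of its 19 probes 1 was higher and 4 were lower in the myeloma line, against 3.29% and 3.41% of all features. The median difference was -0.24 against 0.11 over all features. With the replicate block 2 were higher and 7 lower, where 15.4% of all features were called in either direction. Gadd45b, a stress sensor induced by NF-kB, read 1.38 and 2.05 on the myeloma arrays, above the -2.03 to 0.68 of all other lines, a difference of 2.43 ± 0.31 (SE, limma adjusted p = 0.00705). Its paralogue Gadd45a, a target of p53, read -2.01 and -2.86, a difference of -2.47 ± 0.30 (SE, limma adjusted p = 0.00593). Pmp22, also known as Gas3, a myelin protein, read -2.47 and -3.69, a difference of -2.88 ± 0.38 (SE, limma adjusted p = 0.0078). Ddit3, also known as Gadd153 or CHOP, a transcription factor of the stress response, read -2.63 and -2.42, below the -0.80 to 1.22 of all other lines, a difference of -2.68 ± 0.25 (SE, limma adjusted p = 0.00287). Gas8, a component of motile cilia, read -1.78 and -1.58, also below all other lines, whose lowest was -0.79. Its difference was -1.82 ± 0.26 (SE, limma adjusted p = 0.00969), lost without either myeloma array. The calls of Gadd45b, Gadd45a, Pmp22 and Ddit3 were lost without myeloma array 2. Gas1, a membrane protein of arrested cells, read -3.61 and -2.51, with a difference of -1.65 (limma adjusted p = 0.106, and 0.00627 with the replicate block). Cdkn1a, the cell-cycle inhibitor p21, read -1.31 and -1.13, with a difference of -1.27 (limma adjusted p = 0.0525, and 0.0165 with the block). The inhibitors Cdkn1b and Cdkn2c had differences of 1.23 and -1.05 (limma adjusted p = 0.0761 and 0.0672, and 0.0427 and 0.0273 with the block). Pmp22 and Gas8, the called members that like Gas6 bear a growth arrest-specific name, were lower in the line where Gas6 was highest. Other members so named were not called by limma and went both ways. Their differences were 0.36 for Gas7, -0.24 for Gas2, -0.84 for Gas2l1 and -1.65 for Gas1.

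Of 20 probes for signalling below TAM receptors, 1 was higher and 1 lower in the myeloma line, against 3.29% and 3.41% of all features. With the replicate block 3 were higher and 3 lower, where 15.4% of all features were called in either direction. The median difference was -0.07 against 0.11 over all features. Pik3r1, the regulatory subunit of PI3-kinase, read 0.41 and 1.14, a difference of 1.45 ± 0.31 (SE, limma adjusted p = 0.0422), lost in 7 of 13 settings. Twist2, a repressor of cytokine genes related to the Axl-induced Twist1, read -0.98 and -1.84, a difference of -1.44 ± 0.33 (SE, limma adjusted p = 0.0493), lost in 6 of 13. Akt1, the kinase below PI3-kinase, read -0.98 and -3.18 and was not called (difference -2.07, limma adjusted p = 0.0812, and 0.0422 with the block). Ifnar2, a chain of the interferon receptor with which TAM receptors cooperate, had a difference of 1.22 (limma adjusted p = 0.063, and 0.0495 with the block), and its partner chain Ifnar1 read 0.78 and 0.33 (limma adjusted p = 0.216). Vav1, an exchange factor for Rac proteins in blood cells, read 0.81 and 0.82, with a difference of 1.11 (limma adjusted p = 0.0856, and 0.039 with the block).

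Among secreted proteins with the laminin G domains that Gas6 uses to bind its receptors, 1 of 20 probes was higher and 1 lower in the myeloma line. Over all features these shares were 3.29% and 3.41%. With the replicate block 3 were higher and 1 lower, where 15.4% of all features were called in either direction. The median difference was 0.16 against 0.11 over all features. Slit2, an axon guidance protein, read -3.80 and -5.06, a difference of -3.63 ± 0.47 (SE, limma adjusted p = 0.00722), within the -5.86 to 2.30 of the other lines. The Slit2 call was lost without myeloma array 2. One probe of Agrn, agrin, the organiser of the neuromuscular synapse, read 0.74 and 0.84, a difference of 1.23 ± 0.24 (SE, limma adjusted p = 0.0332), lost in 5 of 13 settings. The second Agrn probe read -0.33 and -1.56 and was not called, so the gene's direction is not settled. Cntnap1 read -0.47 and 0.95, with a difference of 1.69 (limma adjusted p = 0.0961, and 0.0254 with the block). Nrxn3, a neurexin, had a difference of 1.06 (limma adjusted p = 0.272, and 0.0117 with the block), and Slit1 one of 0.48 (adjusted p = 0.451). A probe of the laminin chain Lama3 had a difference of 0.87 (limma adjusted p = 0.12), and the other probes of that gene gave -0.10 and 0.39.

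**Figure D5:**
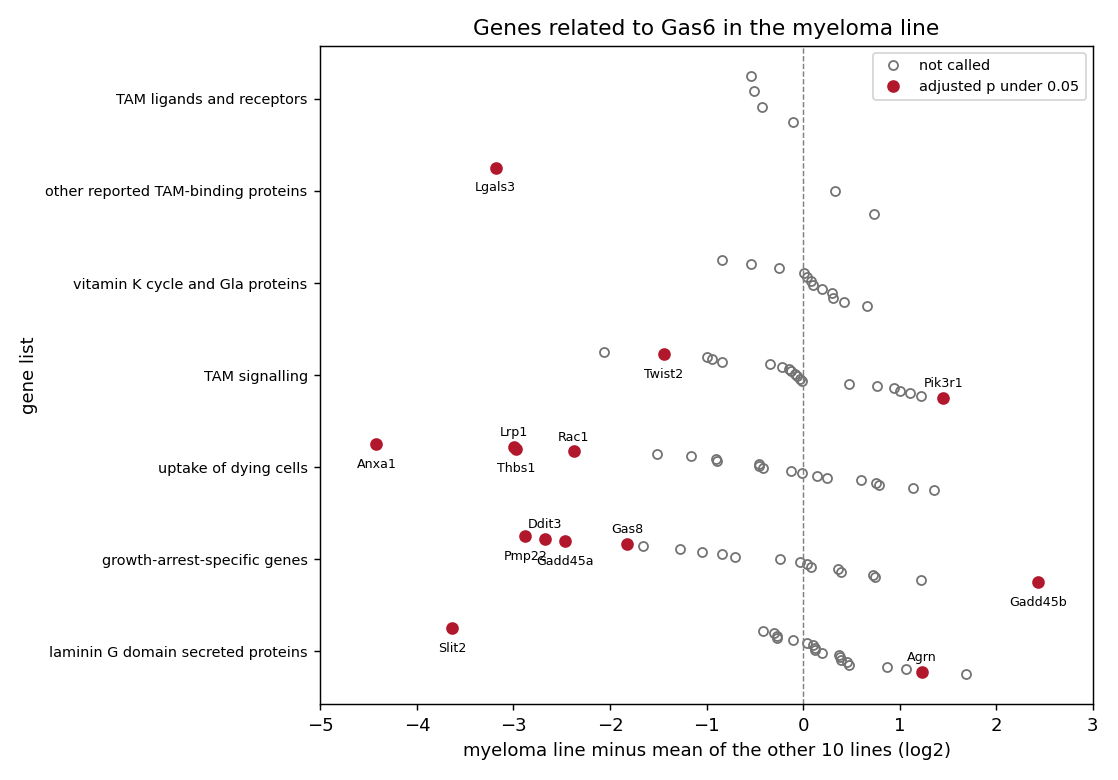
Difference in log2 ratio of the myeloma line from the mean of the other 10 lines (horizontal axis) for the 97 pathway probes, grouped by list (rows), with called probes filled and Pros1 drawn in both of its lists. Anxa1 at -4.42 is the lowest and Gadd45b at 2.43 is the highest called value, against 8.14 for Gas6, which is not drawn.

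Gas6 was high in 1 blood-cell line, intermediate in another and at the bottom in the third, so the lists were also compared between the 3 blood-cell lines (myeloma, macrophage, T-cell lymphoma) and the other 8, with limma on line means. Over all features 3.22% were called, 0.997% higher and 2.22% lower. Of the 97 probes 9 were called, or 9.28%, 1 higher and 8 lower. Pros1 averaged -2.61 in the blood-cell lines and -0.17 in the others, a difference of -2.44 ± 0.54 (SE, limma adjusted p = 0.0282), lost without the T-cell lymphoma line (0.143) or the macrophage line (0.0664) and under quantile normalization (0.0603). Vav1 averaged 1.48 and -0.82, a difference of 2.31 ± 0.38 (SE, limma adjusted p = 0.00563). Anxa1 averaged -3.16 and 0.73, a difference of -3.89 ± 0.63 (SE, limma adjusted p = 0.00487). Thbs1 averaged -5.57 and -0.19, a difference of -5.38 ± 0.97 (SE, limma adjusted p = 0.0102). Lrp1, Slit2, Twist2 and both probes of Hspg2, the basement membrane proteoglycan perlecan, were also lower. Without the T-cell lymphoma line, and likewise under quantile normalization, Vav1, Anxa1 and Thbs1 were the 3 probes called. No growth-arrest probe was called by limma (6 of 19 at an unadjusted p under 0.05, against 19.8% of all features).

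Likeness to Gas6 was measured by Pearson's correlation over the 11 line means, for 6611 named probes, as a description. The median was 0.043, and 24 probes reached 0.8. The 10 most alike were Vpreb3 (0.908), Xbp1 (0.901), Pim1 (0.894), Ly6d (0.894), Dcaf8l (0.893), Galns (0.865), Cdh1 (0.860), Irf2 (0.860), Ebi3 (0.856) and Aldh1a2 (0.851). Xbp1, a transcription factor of plasma cells and of the unfolded protein response, read 2.15 and 2.60 on the myeloma arrays, against -2.16 to -0.41 in the other lines. Pim1, a survival kinase, read 1.57 and 2.83, against -2.42 to -0.88. Ly6d, a surface protein of B-lineage cells, read 2.16 and 2.43, against -1.62 to -0.43. A profile that is high in the myeloma line alone fixes the direction of such probes in that line, so no test of it is given. Their myeloma differences amounted to 17.4% to 48.9% of that of Gas6. The correlations leaned on the myeloma line: without it they were 0.41 to 0.72, and none of the 10 stayed among the 10 most alike. With Spearman's correlation 1 of the 10 did. The 5 most opposite were S100a6 (-0.935), Lgals1 (-0.901), Zfp61 (-0.867), Arl2 (-0.862) and Gsn (-0.851). S100a6, calcyclin, read -6.79 and -7.66 on the myeloma arrays, against -1.54 to 1.15 in the other lines, and Lgals1, galectin-1, -5.19 and -6.38, against -0.78 to 1.85. Zfp61 read -0.01 and -4.10 on the myeloma arrays, against -0.58 to 0.72 in the other lines, so its low myeloma mean came from array 2. The low place of the 5 by their myeloma means likewise follows from how they were picked.

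Marker lists bore out the labelled identity of the myeloma line in part. In that line 3.29% of all features were called higher and 3.41% lower. Of 15 B-cell and plasma-cell probes 12 were higher and 0 lower, 13 were above the pool, and 12 were highest in this line. Their mean was 1.79 in the myeloma line, against -2.21 to -0.66 in the other 10. The B-cell factor Pax5 (-0.12) and the B-cell receptor chain Cd79a (0.27) were near the pool. The median correlation of the 15 with Gas6 over the lines was 0.65, against 0.043 over all named probes. Gas6 is itself highest in this line, so a high correlation of markers highest there was fixed in advance and supports nothing further. Of 10 epithelial probes 4 were also higher in the myeloma line, Elf3, Epcam, Spint2 and Cldn7, with line means of 2.02, 2.37, 2.06 and 2.30. The epithelial mean was 0.37 in the myeloma line, against -2.73 to 0.36 in the others, while the keratins Krt8, Krt18 and Krt19 read -2.25, -2.08 and -2.74. Of 10 macrophage probes 2 were higher, Cd68 and Ctss, and the mean of that list was -0.50, against 1.25 in the macrophage line. In RNA of a whole culture, fewer cells of a type and less RNA per cell cannot be told apart. The part of any of these cell types in the Gas6 values was not tested. Of the other labels that touch these results, 7 of 10 macrophage probes were highest in the macrophage line, 6 of 8 T-cell probes in the T-cell lymphoma line, and 9 of 9 muscle probes in the myoblast line. Of 10 fibroblast probes 2 were highest and 3 above the pool in the fibroblast line, and 0 and 3 in the embryo fibroblast line. The mean of that list was -0.89 in the fibroblast line and -1.10 in the embryo fibroblast line, below the 0.25 of the testis, -0.07 of the myoblast and -0.52 of the mammary tumor line, so the fibroblast labels were not borne out by these markers. In the liver line 0 of 12 liver probes were highest and 5 were above the pool.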

How the data were processed

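The authors deposited 1 table of log2 ratios, 1 value per probe and array. The sources used here do not give its background correction, normalization or spot filters. Intensities were not used, and the number of arrays limits the precision. The log2 scale and the line-over-pool direction were judged from the deposited values, whose unlogged mean over the lines has a median near 1.

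The 80 Gapdh spots were averaged, leaving 7601 features, of which 7423 had a value in all 11 lines and were tested. 423 cells were empty. Of 6839 annotated probes 6835 had 1 gene symbol, 4 had several and were left unnamed, and 6809 were matched by gene identifier to RefSeq (GRCm38.p6). limma 3.58.1 in R 4.3.3 fitted 1 coefficient per line and compared each with the equally weighted mean of the other 10, with Benjamini-Hochberg adjustment over all features (3 residual and 3.75 prior degrees of freedom). Blood-cell lines were compared with the other 8 on line means. Both comparisons were also run on simulated data with independent noise. The simulation held no effect of replicate number or image run, so it does not cover them. Plots used matplotlib 3.10.9 under Python 3.11.15.

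Gas6, the gene lists and the tests were chosen with earlier results of these data known. Named genes included all measured TAM ligands, receptors and other TAM-binding proteins, and the 10 most alike and 5 most opposite probes. Of the other lists, members called in the myeloma line or in the blood-cell comparison were named. So were members with the largest myeloma differences that were not called there. Calls in other single lines were followed for the TAM and vitamin K lists, and most such calls in the other lists are not described.

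Array numbers come from the titles. The differences between array 2 and array 1 correlated over features at 0.542 (mammary tumor and fibroblast), 0.384 (mammary tumor and myeloma) and 0.333 (fibroblast and myeloma). The number was therefore also fitted as a replicate block, with lines of 1 array placed with array 1. An adjusted p given with the block belongs to the block's own estimate, which can differ from the difference printed beside it. Alternatives were median centring, quantile normalization, a floor at -4, features on all 14 arrays, the image run as a random block (correlation 0.470), the replicate block, robust eBayes and leaving out each array in turn.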

Additional observations from a re-analysis of the deposited data

How the results depend on the processing

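The Gas6 difference between the myeloma line and the mean of the other 10 lines was 8.14. It was 6.40 with values below -4 set to -4, 8.05 with centred arrays, 7.90 under quantile normalization, 8.08 with the image run as a random block and 8.17 with the replicate block, and lay between 7.65 and 8.64 when 1 array was left out. The TAM and vitamin K probes gave 2 calls over the 11 line comparisons. They gave 1 with centred arrays, 1 with the image run as a block, 1 with robust eBayes, 5 with the replicate block, and 0 to 3 when 1 array was left out (0 without either mammary tumor array). The count of pathway probes called in the myeloma line was added as a result after seeing the data. It was 14, and became 29 with the replicate block and 2 to 19 when 1 array was left out. The lowest count came without myeloma array 2. The 9 called in the blood-cell comparison became 3 under quantile normalization and 3 without the T-cell lymphoma line. Of the 10 probes most like Gas6, 1 was shared with Spearman's correlation and 0 with the myeloma line left out. The cause of these changes was not tested. No direction was reversed in any of these alternatives. Signal over background was not used here, so the depth of the low Gas6 ratios is a limit that the floor at -4 shows in part.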

Other observations

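The probe without a gene name that lay beyond Gas6 read 2.02 and 3.23 on the myeloma arrays, against -8.81 in the embryo fibroblast line to -4.65 in the liver line. It was below -4 on all 12 arrays of other lines, where Gas6 was below -4 on 10. Its correlation with Gas6 over the 11 lines was 0.842, a description over lines that share 1 pool. In the macrophage line it read -6.25, where Gas6 read -2.60, and in the testis line -6.53, where Gas6 read -3.44. The next probe by number, for Epb41l3, had a correlation of -0.14 with it, where Lactb after Gas6 had 0.770. The probe just before it, also unnamed and without a value in the embryo fibroblast line, had a correlation of 0.658 with it. That probe read 1.33 and 1.52 on the myeloma arrays, against a median of 0.02 in the other lines. The part of the print layout in these values was not tested.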
